A study of Mus musculus with 6 samples.

Results

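The genes of MHC class I antigen presentation were followed by RNA sequencing in cultured mouse aortic smooth muscle cells, which give arteries their tone. The tables were searched for 9 gene symbols, chosen with earlier results of these data known. All 9 were found among the 25939 genes listed. They are the heavy chain genes H2-K1 and H2-D1, the light chain gene B2m, the peptide transport and loading genes Tap1, Tap2 and Tapbp, and the immunoproteasome genes Psmb8, Psmb9 and Psmb10. One group of 3 libraries came from cells given trimethylamine N-oxide (TMAO), an amine oxide formed in the liver out of a product of gut microbes, for 48 h, and the other 3 libraries came from Control cells. The sources used here do not give the dose, the strain, sex and number of mice or what the Control cells received. The labels do not say whether the 3 libraries of a group came from separate animals or cultures, so p-values reflect only how these libraries spread, which may be technical. The comparison addresses the response of gene expression to TMAO.

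Class I molecules carry short peptides from inside the cell to its surface, where CD8+ T cells read them. Proteasomes cut proteins into peptides, the TAP transporter moves the peptides into the endoplasmic reticulum, tapasin holds the transporter next to an empty class I molecule, and a heavy chain paired with beta-2 microglobulin leaves for the surface once a peptide is bound. Nearly all nucleated cells make class I molecules at rest, and interferons, above all interferon gamma, raise the whole set together.

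Levels are in FPKM, fragments scaled to exon length and to library size. The length took in all annotated exons of a gene, such as 860 bases for B2m and 3660 for Psmb9. Levels of different genes, and ratios between them, therefore compare only roughly. The library totals implied by the FPKM values ran from 14991252 to 16524834 reads in TMAO and from 15015258 to 16806728 reads in Control, and a read in 1 kb of exon was worth 0.0595 to 0.0667 FPKM. Read numbers given for single genes were recovered in the same way. Mitochondrial genes took 6.36% to 6.64% of the reads in TMAO libraries and 7.23% to 7.84% in Control libraries, and the part of this gap in the results was not tested. The smooth muscle markers summed to 593.2 to 612.9 FPKM in TMAO and 610.6 to 614.7 FPKM in Control, led by Acta2 and Myl9, with 6 of 10 at a mean of at least 1 FPKM. Myh11, Cnn1, Tagln and Synpo2 were below that level. Fibroblast markers summed to 724.2 to 739 FPKM in TMAO and 705.1 to 743.3 FPKM in Control, with 7 of 8 at a mean of at least 1 FPKM. Most of that was Ly6a (means of 410 FPKM in TMAO and 414.6 FPKM in Control) and Serpinf1 (266.2 FPKM and 254.2 FPKM). Genes of both sets were thus present, though each sum rested mostly on few genes. Of 12 macrophage markers 8 had a mean of at least 1 FPKM, led by Lyz2 and Cd14. The 12 summed to 93.04 to 101.8 FPKM in TMAO and 93.3 to 115.3 FPKM in Control. Most of that was Lyz2, with means of 70.01 FPKM in TMAO and 76.95 FPKM in Control. Ptprc, Adgre1, Csf1r and Mrc1 were below 1 FPKM in every library. Macrophages express class I genes too, and in bulk RNA fewer cells of a type and less RNA per cell cannot be told apart. Dendritic cell markers summed to at most 0.4881 FPKM in TMAO and 0.7086 FPKM in Control, and lymphocyte markers to at most 0.05857 FPKM in TMAO and 0.07287 FPKM in Control, with 7 of 10 lymphocyte markers in no row of the tables. The endothelial list summed to 12.77 to 13.29 FPKM in TMAO, below the 15.57 to 16.93 FPKM of Control, and almost all of it was Emcn, which codes for the sialomucin endomucin. Emcn differed by -0.33 on the log2 scale (limma adjusted p = 0.0504), and its part in the results on class I genes was not tested.

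The promoters of H2-K1, H2-D1 and B2m are shown first because these 3 genes code for the assembled molecule and hold the same pair of boxes at the same distance. RefSeq windows of 250 bases before and 50 after the transcript start, on build GRCm38.p6, were at hand for 8 of the 9 genes. All 8 were searched on both strands for the X2 box (TGACG), the Y box (CCAAT, which reads ATTGG on the other strand), the core of the interferon-stimulated response element (GAAANNGAA), the gamma-activated site (TTCNNNGAA) and the GC box (GGGCGG). Matches are in capitals, and matches of different motifs did not overlap in the windows printed. The windows lie at chr17:34000298-34000597 (minus strand) for H2-K1, chr17:35262844-35263143 (plus strand) for H2-D1 and chr2:122147437-122147736 (plus strand) for B2m.
H2-K1: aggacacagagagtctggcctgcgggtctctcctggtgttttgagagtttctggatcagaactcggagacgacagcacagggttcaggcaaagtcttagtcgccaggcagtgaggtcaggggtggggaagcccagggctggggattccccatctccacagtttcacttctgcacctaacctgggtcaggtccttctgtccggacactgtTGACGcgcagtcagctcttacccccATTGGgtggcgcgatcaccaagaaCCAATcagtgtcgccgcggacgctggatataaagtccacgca
H2-D1: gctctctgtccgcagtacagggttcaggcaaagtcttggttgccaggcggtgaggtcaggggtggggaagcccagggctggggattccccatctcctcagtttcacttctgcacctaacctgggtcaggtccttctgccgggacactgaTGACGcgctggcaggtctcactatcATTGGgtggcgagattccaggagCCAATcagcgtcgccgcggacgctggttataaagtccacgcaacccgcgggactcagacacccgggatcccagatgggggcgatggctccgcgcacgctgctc
B2m: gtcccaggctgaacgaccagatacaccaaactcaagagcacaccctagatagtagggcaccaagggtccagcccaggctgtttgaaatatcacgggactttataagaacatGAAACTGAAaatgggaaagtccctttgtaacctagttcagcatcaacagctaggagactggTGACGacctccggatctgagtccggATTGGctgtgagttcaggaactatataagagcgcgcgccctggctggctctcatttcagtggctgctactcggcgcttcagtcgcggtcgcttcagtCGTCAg

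In each of these 3 windows an X2 box was followed, 20 bases further on, by a Y box on the other strand. Of 32817 RefSeq windows of that length, 31 (0.0945%) held this pair, and the class I gene H2-M3, named for its match, was among them. That distance was noticed in the 3 windows and then counted over all of them, so the 31 include these 3. They also include overlapping windows of the same locus, such as a further window of H2-K1. The share is therefore no independent measure of how rare the pair is. Singly the X2 box stood in 20.8% of all windows, the Y box in 37.4%, the GC box in 35.6%, the response element core in 8.55% and the gamma-activated site in 8.29%. Only B2m of the 8 genes held the response element core as spelled above, at -139 to -131 from its start. Other spellings of that element were not searched for, so windows without a match may still hold it. Only Psmb8 held the gamma-activated site, at -97 to -89.

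Tap1 and Psmb9 are shown next because they are transcribed away from each other out of 1 promoter, with RefSeq starts 226 bases apart, so that 275 bases of their windows are the same DNA. The window of Tap1 lies at chr17:34187306-34187605 on the plus strand and that of Psmb9, read on the minus strand, at chr17:34187281-34187580. It held an X2 box, a Y box and a GC box, here CCGCCC on the strand printed.
Tap1: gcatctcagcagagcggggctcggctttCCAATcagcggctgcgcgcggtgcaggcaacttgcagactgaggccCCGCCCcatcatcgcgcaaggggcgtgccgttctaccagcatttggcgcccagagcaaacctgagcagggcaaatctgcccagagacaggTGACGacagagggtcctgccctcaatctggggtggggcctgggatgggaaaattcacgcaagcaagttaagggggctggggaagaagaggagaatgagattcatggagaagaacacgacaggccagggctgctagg

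None of the 7 genes that could be tested passed the threshold after TMAO, and their differences had both signs. B2m and H2-K1 stood at nearly the same level in both groups. H2-D1 and the tapasin gene Tapbp had lower means in TMAO (-9.96% and -19.3%) and Psmb10 a higher one (11.6%), and for each of the 3 the nearest libraries of the groups lay closer than replicates did. Tap1 had a higher mean in TMAO and its partner Tap2 a lower one, with overlapping groups. Psmb8 and Psmb9 were at a few reads per library.

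Of the 9 genes, 7 passed the filter of 1 FPKM in at least 3 libraries and were tested with limma on log2(FPKM + 1), and Psmb8 and Psmb9 were not. At an adjusted p of 0.05, 0 of 7 passed, where 0.181% of the 11062 genes tested did (0.0723% higher and 0.108% lower). That split of 8 higher and 12 lower was 7 and 18 with quantile normalization, and it turned to 42 higher against 14 lower without TMAO replicate 2 and 8 against 4 without TMAO replicate 1. It also turned when Control replicate 1 (14 against 8), Control replicate 2 (12 against 8) or Control replicate 3 (8 against 3) was left out. With voom on the recovered reads 0 members passed, where 0.89% of 10893 genes did, and with a filter of 5 reads on the mean, which lets Psmb8 and Psmb9 enter, 0 of 9, where 0.71% of 14499 genes did. At an unadjusted p of 0.05, 3 of 7 passed (1 higher, 2 lower), where 13.1% of all tested genes did. The 3 TMAO libraries exceeded all Control libraries for 1 of 7 and lay below them for 2 of 7, where 12.4% and 6.23% of all tested genes did so and 18.7% had no overlap in either direction. The median log2 fold change over the 7 was 0.023, and over all tested genes 0.025. These counts over 7 genes are a description and no test of the set.

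**Figure D1:**
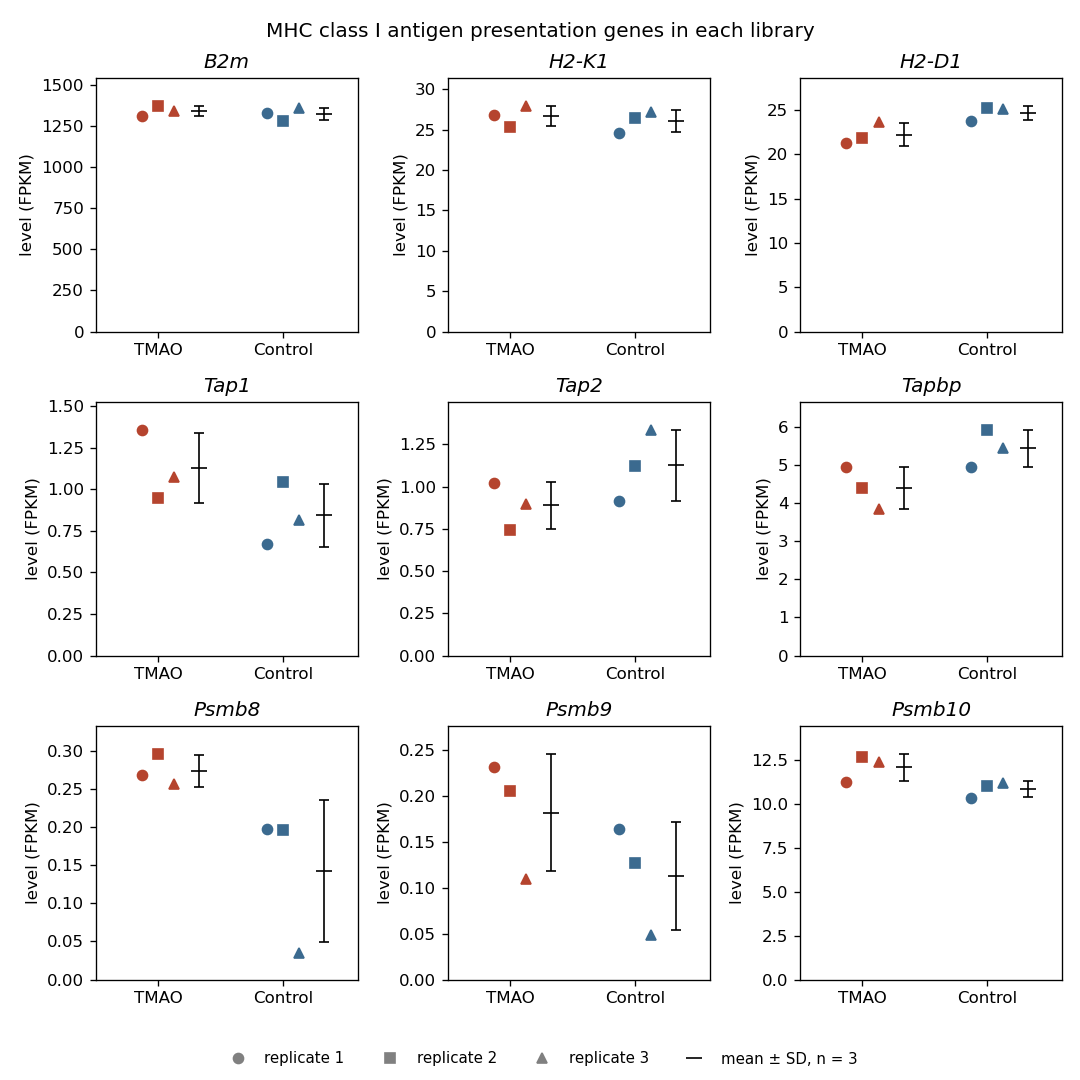
Level of each of the 9 genes in FPKM (vertical axes from 0), TMAO at the left and Control at the right of each panel, with 1 point per library shaped by replicate number and the mean ± SD of 3 libraries in black. B2m and H2-K1 overlap between the groups, whereas Psmb8 shows 1 Control library, at 0.0352 FPKM, far below the other 5.

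B2m (ENSMUSG00000060802, chromosome 2, 122147686 to 122153083, plus strand of mm10) codes for beta-2 microglobulin, the light chain of every classical class I molecule. It was the 38th most abundant gene of the tables by mean level. B2m stood at 1312, 1373 and 1340 FPKM in TMAO replicates 1 to 3 and at 1327, 1280 and 1355 FPKM in Control replicates 1 to 3. The groups overlapped, and the means were 1342 ± 30.35 FPKM in TMAO and 1321 ± 38.31 FPKM in Control (SD, n = 3 each). On the log2 scale TMAO minus Control gave 0.02 ± 0.0416 (SE of the difference; limma adjusted p = 0.866), with an unadjusted 95% interval from -0.069 to 0.115. B2m had 16578 to 19591 reads per library. Even so the difference ran from 0.0004 without Control replicate 2 and 0.0063 without TMAO replicate 2 to 0.0389 without TMAO replicate 1 and 0.0419 without Control replicate 3, and quantile normalization gave 0.0671, all within the unadjusted interval.

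H2-K1 (ENSMUSG00000061232, chromosome 17, 33996017 to 34000347, minus strand) codes for a classical class I heavy chain, the part that holds the peptide. It stood at 26.86, 25.35 and 27.9 FPKM in TMAO and at 24.55, 26.48 and 27.16 FPKM in Control. The lowest of the 6 libraries was Control 1 and the highest TMAO 3, and the groups overlapped. The means were 26.7 ± 1.285 FPKM in TMAO and 26.06 ± 1.353 FPKM in Control (SD, n = 3 each), and the log2 difference was 0.03 ± 0.0563 (limma adjusted p = 0.849) and an interval from -0.091 to 0.159. Its sign turned without Control replicate 1 (-0.0069) and with median-ratio scaling (-0.0045), and that scaling also turned B2m (-0.0168).

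H2-D1 (ENSMUSG00000073411, chromosome 17, 35262730 to 35267499, plus strand) codes for the other classical heavy chain measured. It stood at 21.24, 21.8 and 23.67 FPKM in TMAO and at 23.73, 25.22 and 25.12 FPKM in Control. All TMAO libraries were below all Control libraries, but TMAO 3 and Control 1 were nearly equal. The means were 22.24 ± 1.272 FPKM in TMAO and 24.69 ± 0.8343 FPKM in Control (SD, n = 3 each). On the log2 scale TMAO minus Control gave -0.15 ± 0.0553 (limma adjusted p = 0.303), with an unadjusted 95% interval from -0.268 to -0.024, so H2-D1 did not pass.

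Both heavy chain genes stood at a small fraction of the B2m level in FPKM. B2m FPKM divided by the sum of H2-K1 and H2-D1 FPKM gave 27.3, 29.1 and 26 in TMAO and 27.5, 24.7 and 25.9 in Control. H2-K1 was 2.05%, 1.85% and 2.08% of B2m in TMAO and 1.85%, 2.07% and 2% in Control, and the groups overlapped (difference of 0.012 on the log2 scale, two-sided exact permutation p = 0.8). H2-D1 was 1.62%, 1.59% and 1.77% of B2m in TMAO and 1.79%, 1.97% and 1.85% in Control. This ratio was lower in every TMAO library, by -0.175 on the log2 scale, with an exact permutation p = 0.1, the smallest that 3 against 3 libraries can give, and 0.2 after adjustment over the 2 heavy chain ratios. A ratio within a library does not depend on the library total.

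Heavy chain genes resemble each other, and reads from shared stretches can be counted for the wrong gene or dropped. Of the stretches of 100 bases in annotated H2-D1 transcripts, 3.59% also occur in transcripts of other genes, mostly H2-Q1, which was listed at 0 in all TMAO libraries and at 0.02329 FPKM in Control 1. For H2-K1 the share was 0.957%, with H2-Q10 first, and at 50 bases the shares were 12.8% for H2-D1 and 9.63% for H2-K1. The sources used here do not give the read length. Class I heavy chains also differ between mouse strains, and the strain of these cells is unknown. B2m and Psmb10 shared no stretch of 50 bases with another gene.

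Tap1 (ENSMUSG00000037321, chromosome 17, 34187553 to 34197225, plus strand) and Tap2 (ENSMUSG00000024339, chromosome 17, 34203527 to 34216321, plus strand) code for the chains that pair as the peptide transporter. Tap1 stood at 1.359, 0.9502 and 1.072 FPKM in TMAO, from 123, 83 and 88 reads, and at 0.6689, 1.043 and 0.8149 FPKM in Control, from 55, 86 and 75 reads. TMAO 1 was the highest library, and TMAO 2 lay below Control 2. The mean was 33.8% higher in TMAO, and the difference on the log2(FPKM + 1) scale was 0.21 ± 0.109 (limma adjusted p = 0.46). It was 0.13 without TMAO replicate 1, and 0.43 with voom, which adds no FPKM.

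Tap2 moved the other way in its means. It stood at 1.024, 0.7461 and 0.8998 FPKM in TMAO, from 64, 45 and 51 reads, and at 0.9159, 1.124 and 1.338 FPKM in Control, from 52, 64 and 85 reads. The groups overlapped, the mean differed by -20.9%, and the difference on the log2(FPKM + 1) scale was -0.17 ± 0.104 (limma adjusted p = 0.54). It was -0.10 without Control replicate 3, -0.11 without TMAO replicate 2 and -0.34 with voom. Exons of other genes on the opposite strand overlap 18.5% of Tap2's exon bases, and without the strand setting of the counting their reads cannot be told apart.

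Tapbp (ENSMUSG00000024308, chromosome 17, 33915899 to 33929292, plus strand) codes for tapasin, which bridges transporter and heavy chain and favours the binding of stable peptides. It stood at 4.954, 4.389 and 3.843 FPKM in TMAO and at 4.956, 5.928 and 5.461 FPKM in Control. All TMAO libraries were below all Control libraries, although TMAO 1 and Control 1 were nearly equal. The means were 4.395 ± 0.5556 FPKM in TMAO and 5.449 ± 0.486 FPKM in Control (SD, n = 3 each). A log2 difference of -0.26 ± 0.0907 (limma adjusted p = 0.26) was the furthest from 0 among the 7 tested genes on the log2(FPKM + 1) scale, though with voom Tap1 (0.43) and Tap2 (-0.34) lay further than Tapbp (-0.31). It had an unadjusted 95% interval from -0.460 to -0.059. Exons of Gm19412 on the opposite strand overlap 24.9% of Tapbp's exon bases, and exons of Zbtb22 on the same strand 4.11%, so reads of these genes could count for it.

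Psmb8 (ENSMUSG00000024338, chromosome 17, 34197721 to 34201454, plus strand) codes for the inducible subunit that takes the place of Psmb5 in the immunoproteasome, with chymotrypsin-like activity. It had 15, 16 and 13 reads in TMAO and 10, 10 and 2 reads in Control, which is 0.2685, 0.2967 and 0.2565 FPKM in TMAO against 0.197, 0.1963 and 0.0352 FPKM in Control. All TMAO libraries were above all Control libraries. Counting error alone gives a 95% exact Poisson interval of 0.137 to 0.439 FPKM for TMAO 3 and 0.0945 to 0.362 FPKM for Control 1, which overlap. The interval of Control 3, 0.00426 to 0.127 FPKM, lay below those of all 3 TMAO libraries. Exons of Gm20496 on the opposite strand overlap 14.7% of Psmb8's exon bases. Over all reads the ratio of TMAO to Control was 1.98 with an exact interval of 1.16 to 3.46 that covers counting error only. Without Control replicate 3 it was 1.39, with an interval of 0.805 to 2.5. The two-sided exact permutation p over the 6 libraries was 0.1, the smallest possible. With voom and the filter of 5 reads its limma adjusted p was 0.271.

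Psmb9 (ENSMUSG00000096727, chromosome 17, 34181987 to 34187764, minus strand) codes for the inducible counterpart of Psmb6. It had 14, 12 and 6 reads in TMAO and 9, 7 and 3 reads in Control, or 0.2315, 0.2055 and 0.1094 FPKM in TMAO against 0.1638, 0.127 and 0.04877 FPKM in Control. The groups overlapped. The ratio over all reads was 1.66 with an interval of 0.915 to 3.11, the exact permutation p was 0.3 and the adjusted p with voom in limma was 0.544. Without Control replicate 3 the ratio was 1.27. Its first exon lies across from that of Tap1, whose exons cover 5.79% of the exon bases of Psmb9 on the other strand.

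Psmb10 (ENSMUSG00000031897, chromosome 8, 105935735 to 105938444, minus strand) codes for the inducible counterpart of Psmb7, with trypsin-like activity. It lies apart from the other immunoproteasome genes, which sit beside Tap1 and Tap2 in the MHC. Its level was well above that of the other inducible subunits, at 11.25, 12.72 and 12.4 FPKM in TMAO and 10.35, 11.02 and 11.24 FPKM in Control. All TMAO libraries were above all Control libraries, with TMAO 1 and Control 3 nearly equal. The means were 12.12 ± 0.7734 FPKM in TMAO and 10.87 ± 0.4614 FPKM in Control (SD, n = 3 each). On the log2 scale TMAO minus Control gave 0.14 ± 0.0636 (limma adjusted p = 0.369), with an unadjusted 95% interval from 0.004 to 0.285.

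**Figure D2:**
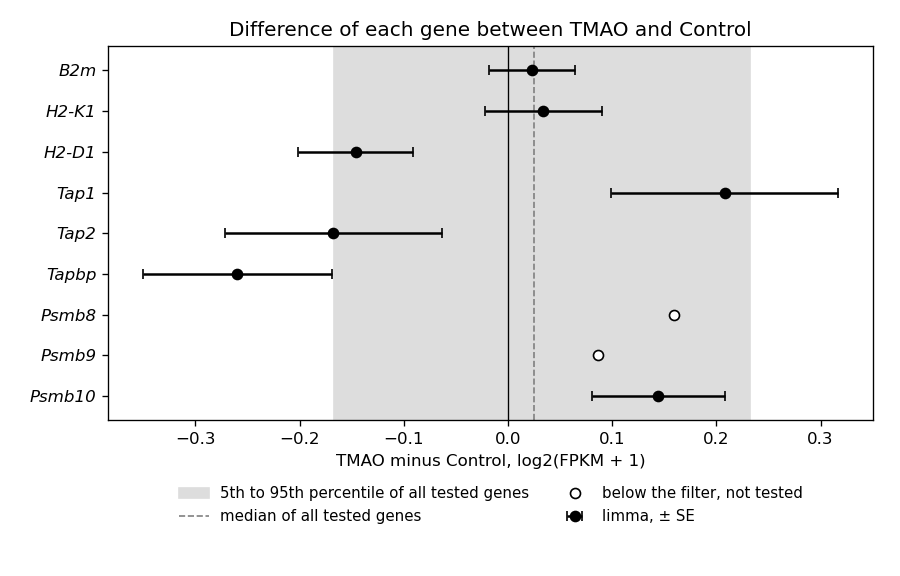
Difference TMAO minus Control on the log2(FPKM + 1) scale for each gene, with filled points ± SE from limma and open points for the 2 genes below the filter. The grey band runs from the 5th to the 95th percentile of all tested genes (-0.167 to 0.232), and Tapbp, at -0.26, lies outside it.

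In cells at rest the constitutive subunits fill most proteasomes, and an immunoproteasome forms when the inducible subunits replace them. Psmb8 was 0.561%, 0.605% and 0.525% of Psmb5 in TMAO and 0.518%, 0.456% and 0.0782% in Control, in FPKM. Every TMAO library was above every Control library, the difference was 1.09 on the log2 scale, and the exact permutation p = 0.1 became 0.15 after adjustment over the 3 proteasome ratios. The low Control 3 library, with 2 reads, set most of that size, since the difference was 0.211 without it, and with 1 FPKM added to both genes it turned to -0.048.

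Psmb9 was 0.292%, 0.253% and 0.138% of Psmb6 in TMAO and 0.226%, 0.173% and 0.0644% in Control. The groups overlapped, with a log2 difference of 0.671 and an exact permutation p = 0.4. The difference was 0.131 without Control replicate 3, 1.038 without Control replicate 1 and -0.027 with 1 FPKM added.

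Psmb10 was 26.1%, 25.6% and 26.5% of Psmb7 in TMAO and 21.8%, 25.3% and 24.1% in Control. Every TMAO library was above every Control library, with a log2 difference of 0.139 and an exact permutation p = 0.1, or 0.15 adjusted over the 3 ratios. Without Control replicate 1 the difference was 0.079. The constitutive genes Psmb5 and Psmb6 also had higher means in TMAO, at 48.57 ± 0.6213 FPKM in TMAO against 42.02 ± 3.613 FPKM in Control and at 80 ± 1.196 FPKM in TMAO against 73.85 ± 1.717 FPKM in Control (SD, n = 3 each; limma adjusted p = 0.198 and 0.278). Psmb7 stood at 46.5 ± 3.272 FPKM in TMAO and 45.89 ± 2.14 FPKM in Control (limma adjusted p = 0.936).

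**Figure D3:**
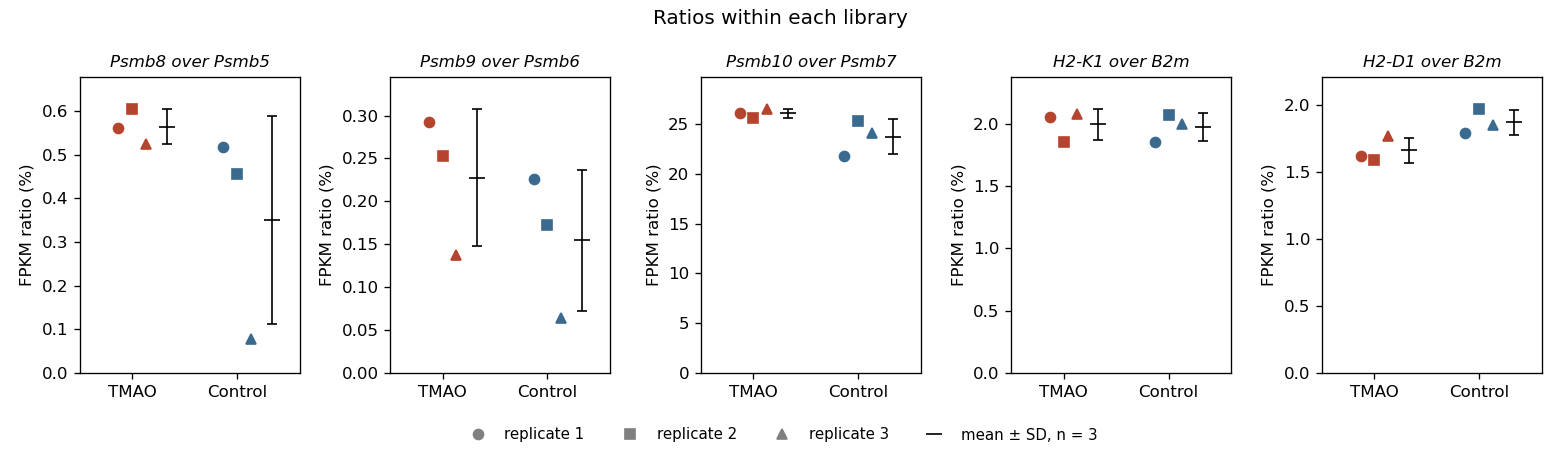
Ratio of FPKM values within each library, in percent (vertical axes from 0), for each inducible over its constitutive proteasome subunit and for each heavy chain over B2m, with TMAO at the left and Control at the right, 1 point per library and the mean ± SD of 3 in black. Psmb10 lies between 21.8% and 26.5% of Psmb7, whereas Psmb8 and Psmb9 reach at most 0.605% and 0.292% of their partners.

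Ordered by mean level in Control, the genes ran B2m, H2-K1, H2-D1, Psmb10, Tapbp, Tap2, Tap1, Psmb8 and Psmb9. H2-K1 and H2-D1 overlapped in Control but not in TMAO, where the lowest H2-K1 library, at 25.35 FPKM, was above the highest H2-D1 library, at 23.67 FPKM. Tap2 and Tap1 overlapped in both groups, and so did Psmb8 and Psmb9 in Control. The coefficient of variation between replicates was 2.26% and 2.9% for B2m in TMAO and Control, 18.6% and 22.4% for Tap1, and 7.53% and 65.3% for Psmb8. Whether the genes rose and fell together between libraries was not tested. In Control, each tested gene except B2m was lowest in replicate 1. In TMAO, H2-K1 and H2-D1 were highest in replicate 3, where Tapbp was lowest. The mean of the tested genes' standardised levels was lowest in Control 1 (-0.642) and highest in Control 3 (0.524). The genes most like that mean over the 6 libraries, among 5683 others with at least 5 FPKM, were Ythdf1 (a reader of methylated RNA), Bcar1 (an adaptor protein of focal adhesions), Srxn1 (sulfiredoxin), Sf3a2 (a splicing factor) and Nme1 (a nucleoside diphosphate kinase), with Pearson correlations of 0.983, 0.977, 0.951, 0.951 and 0.95. These are descriptions of 6 libraries that share depth and preparation, picked as the highest of many.

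The other genes of the pathway were read through 7 lists with 88 tested genes. None of the 88 passed at a limma adjusted p of 0.05, 0 passed with either voom fit, and 10 had an unadjusted p below 0.05 (8 higher, 2 lower). These 10 are 11.4% of the lists, against 13.1% of all tested genes. Every TMAO library exceeded every Control library for 12 (13.6%), and the reverse held for 4 (4.55%), against 12.4% and 6.23% of all tested genes.

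Among 13 tested other class I and class I-like genes, 3 had an unadjusted limma p below 0.05, where 13.1% of all tested genes did. H2-M9, a gene of the nonclassical M region, stood at 18.03, 19.77 and 19.65 FPKM in TMAO and at 24.69, 22.22 and 23.13 FPKM in Control, differing by -0.27 on the log2 scale (limma adjusted p = 0.104). Mill2, a class I-like gene, stood at 2.346 ± 0.2936 FPKM in TMAO and 1.74 ± 0.2074 FPKM in Control (SD, n = 3 each; 0.29, limma adjusted p = 0.241). H2-T23, which codes for Qa-1, the ligand of NKG2A receptors on natural killer cells, stood at 13.52 ± 0.8391 FPKM in TMAO and 14.89 ± 0.07948 FPKM in Control (-0.13, limma adjusted p = 0.37). These 3 lay without overlap, H2-M9 and H2-T23 below Control and Mill2 above. H2-K2 and Hfe also lay above Control in every TMAO library. Thus 3 of 13 lay above and 2 below, where 12.4% and 6.23% of all tested genes did.

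The other tested genes of that list had limma adjusted p-values from 0.419 up. H2-K2 and the iron regulator Hfe had log2 fold changes of 0.24 and 0.19, H2-M3, which presents formylated peptides, 0.19, H2-T24 0.14 and H2-M1 -0.14. Raet1d and Raet1e, ligands of the receptor NKG2D, had 0.11 and 0.05. Fcgrt, the neonatal Fc receptor heavy chain, had 0.02, Mr1, which presents vitamin metabolites, -0.03, and H2-T22, a ligand of gamma delta T cells, -0.01. Fcgrt (65.8 FPKM in TMAO and 64.93 FPKM in Control), H2-T22 (43.26 FPKM in TMAO and 43.66 FPKM in Control), Raet1d and Raet1e had higher mean levels than both classical heavy chains. Reads of the H2 genes can be shared among them, so these levels are uncertain.

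The genes that trim peptides and load them had 0 of 20 at an unadjusted limma p below 0.05 and a median log2 fold change of 0.007. The 4 with the smallest p were Nploc4, a cofactor of the segregase p97 (-0.11 on the log2 scale, limma adjusted p = 0.519), Ergic1 (-0.08, 0.56), the peptidase gene Tpp2 (0.09, 0.567) and the chaperone gene Canx (0.06, 0.595). The list of other core proteasome subunits, activators and assembly factors had 0 of 19 at an unadjusted p below 0.05 and the same median of 0.007. In it Psma1 had -0.09 (limma adjusted p = 0.385), Psmg1 0.10 (0.437), Psme2, a subunit of the interferon-inducible activator PA28, 0.11 (0.441) and Psma4 -0.12 (0.448).

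Among the 20 tested regulators 3 had an unadjusted p below 0.05, all with higher values in TMAO. Stat2 and Irf9, transcription factor genes of the type I interferon response, stood at 6.392 ± 0.7861 FPKM in TMAO against 5.001 ± 0.4379 FPKM in Control and at 8.438 ± 0.4403 FPKM in TMAO against 7.204 ± 0.3086 FPKM in Control (SD, n = 3 each; limma adjusted p = 0.207 and 0.225). Irf7, an amplifier of that response, stood at 1.94 ± 0.223 FPKM in TMAO and 1.358 ± 0.4131 FPKM in Control (limma adjusted p = 0.31), and Crebbp, a coactivator, at 1.454 ± 0.0882 FPKM in TMAO and 1.161 ± 0.2191 FPKM in Control (limma adjusted p = 0.446). These genes lay without overlap except Crebbp, and none passed. Nlrc5, the transactivator of class I genes of their promoters' X and Y box module, was below the filter. Chosen after its values were seen, it stood at 0.06413, 0.05905 and 0.09425 FPKM in TMAO and at 0.05489, 0.0469 and 0.06305 FPKM in Control, with overlapping groups.

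Of the 10 tested interferon receptors, kinases and their inhibitors, Usp18, which dampens signalling at the type I receptor, had the smallest p, at 3.301 ± 0.4632 FPKM in TMAO and 2.222 ± 0.4285 FPKM in Control (SD, n = 3 each; 0.42 on the log2 scale, limma adjusted p = 0.166). The kinase gene Tyk2 had 0.20 (limma adjusted p = 0.366), and the receptor genes Ifnar2 and Ifngr2 had 0.11 and -0.07 (0.544 and 0.656). Of 10 class II genes in the tables H2-DMa, H2-DMb1 and Ctss were tested, with log2 fold changes of 0.16, 0.10 and 0.08 and limma adjusted p-values of 0.495, 0.714 and 0.821. Other members of that list, such as Ciita, H2-Aa and H2-Ab1, were below the filter.

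**Figure D4:**
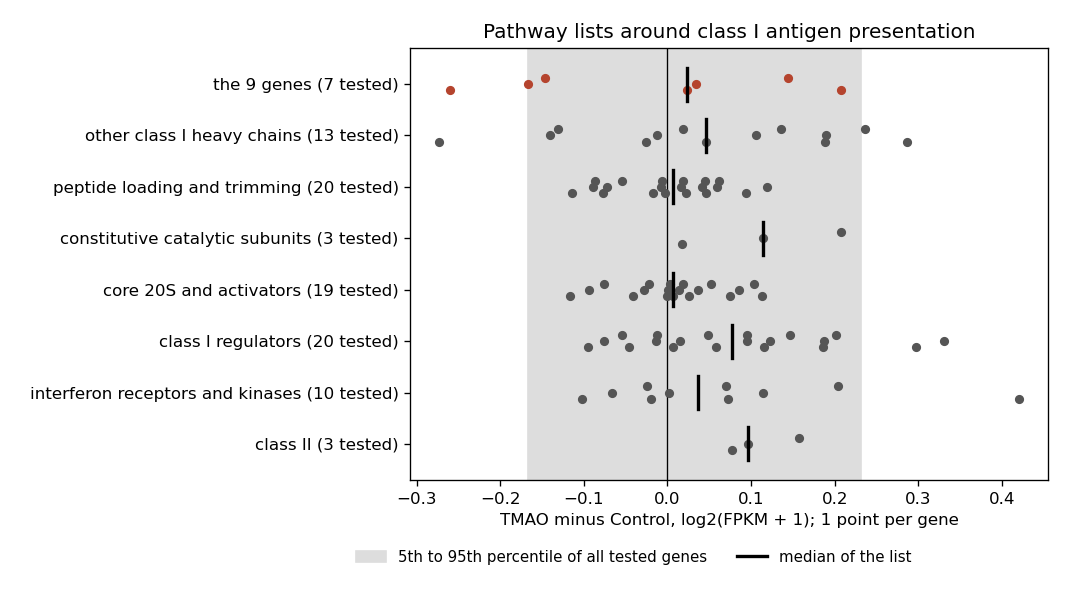
Difference TMAO minus Control on the log2(FPKM + 1) scale, with 1 point per tested gene, for the 7 tested genes of the set (red) and 7 further pathway lists (grey), a black bar at each median and a grey band for the 5th to 95th percentile of all tested genes. The medians run from 0.007 to 0.114, and no point passed an adjusted p of 0.05.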

How the data were processed

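RNA from 3 TMAO and 3 Control libraries was measured, grouped by title. The authors deposited 1 table of FPKM values per library (the Control 1 header spells the unit PKM). Per the labels' protocols, a stranded mRNA kit was used. Per the submitters' processing notes the tools were Trimmomatic, HISAT2, Cufflinks and HTSeq, and the build mm10. The sources used here do not give the annotation or the strand setting. Union exon lengths from GENCODE M21 and 1 total per library gave whole reads (within 0.01) in all 6 libraries for 25499 of 25885 annotated genes (98.5%), all 9 members included. Intervals on reads cover counting error only. Genes that reached 1 FPKM in 3 or more libraries were compared on log2(FPKM + 1) by limma (trended, robust; version 3.58.1, R 4.3.3), with Benjamini-Hochberg adjustment over 11062 genes. This scale understates changes of low genes. Ratios were tested by exact permutation in scipy 1.17.1. The alternatives were other scalings, filters and pseudocounts, a fit that was not robust, a replicate block, voom on recovered reads (once with a filter of 5 reads, added after seeing the data) and each library left out. Named were all 9 members, the 4 tested genes of each list with the smallest p, all tested heavy chain genes and the 5 genes most like the members. Members and lists were chosen with earlier results of these data known. Simulated data tested the scripts. Replicates differed beyond counting noise.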

Additional observations from a re-analysis of the deposited data

How the results depend on the processing

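Across 15 alternatives 0 of the members tested in each and 0 tested genes of the 7 pathway lists passed an adjusted p of 0.05. The members tested were 7 in most, 4 with a filter of 5 FPKM, which left no class II gene, and 9 with no filter and with voom at 5 reads. The lowest adjusted p of a tested member was 0.176. The median log2 fold change of the members ran from -0.017 to 0.042. Of 102 member values under an alternative, 99 kept their sign. The exceptions were H2-K1, at -0.0045 with median-ratio size factors and -0.0069 without Control replicate 1 (from -0.0069 to 0.0696 with 1 library left out), and B2m, at -0.0168 with median-ratio size factors. With 1 FPKM added, the log2 ratio difference was -0.048 for Psmb8 over Psmb5 and -0.027 for Psmb9 over Psmb6; adding 1 FPKM swamps genes at these levels. H2-K1 over B2m ran from -0.034 to 0.066 with 1 library left out. The count of all genes past the threshold, 20, became 0 with no filter, 57 with a filter of 5 FPKM, 97 with voom on recovered reads and 103 with voom and a filter of 5 reads, and ran from 11 to 56 with 1 library left out (11 without Control replicate 3, 12 without TMAO replicate 1, 56 without TMAO replicate 2). The cause was not tested. Same-numbered libraries had correlations of -0.086, -0.104 and 0.056 between their deviations, and unlike-numbered libraries ran from -0.061 to 0.141. These values cannot tell whether same-numbered libraries shared a culture, an animal or a preparation, and the labels do not say. With the replicate block 22 genes (12 higher, 10 lower) and 0 members passed. Pairing leaves a ratio's mean difference (1.090, 0.671 and 0.139 for the 3 proteasome ratios) as it is by construction, and 3 pairs cannot give an exact p below 0.25, so it says nothing about their stability. Depth limits Psmb8 and Psmb9, at 2 to 16 reads per library.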
